A study of Mus musculus with 5 samples.

Results

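The genes described here encode the cytosolic translation initiation factors (eIF1 to eIF6), the elongation factors eEF1 and eEF2, and Tpt1, the translationally controlled tumour protein. They were taken by gene symbol from the platform annotation, without the 4 eIF2 kinases Eif2ak1 to Eif2ak4, and 56 of the 19937 genes with a probe set under a single symbol met the rule. Of the 66 protein-coding RefSeq symbols of the same pattern, 10 had no such probe set and were not analysed here, among them Eif1, Eif2s1, Eif3g, Eif4g1 and Eef1g. Where a gene had several probe sets the brightest over all 5 arrays was used, which applied to 8 genes. The symbol pattern also took in 4 genes for lysine methyltransferases that act on eEF1A (Eef1akmt1, Eef1akmt2, Eef1akmt3 and Eef1aknmt), which are counted apart from the other eEF1 genes.

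RNA was measured on Affymetrix arrays after anti-FLAG precipitation from NSC-34, a mouse motor neuron-like line made by fusing neuroblastoma cells with spinal cord motor neurons. One group, FLAG-SMN IP (n = 3), came from cells with a 3XFLAG-flSMN construct, a FLAG-tagged full-length survival of motor neuron protein (SMN). The other group, control IP (n = 2), came from NSC-34 cells without any FLAG construct and so measures RNA that the beads carry without a tagged protein. All cells of both groups were differentiated in low serum (1%), given 3 µg/ml doxycycline for 3 days and irradiated with ultraviolet light at 400 mJ/cm2 before lysis. The comparison asks which RNAs are present in particles that contain SMN. Lysate RNA was not analysed here, and no value below is therefore relative to how much of an mRNA the cells held. Whether the construct line is 1 clone, and whether replicates were separate cultures, is not stated in the labels. The p-values reflect the spread among these 5 samples alone, and that spread may be technical.

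Translation starts when eIF2 brings the initiator tRNA to the small ribosomal subunit, where eIF1, eIF1A, eIF3 and eIF5 help to find the start codon. The eIF4 factors recruit the mRNA: eIF4E binds the cap, eIF4G is the scaffold and eIF4A is an RNA helicase. During elongation eEF1A delivers aminoacyl-tRNA, eEF1B recycles eEF1A, and eEF2 moves the ribosome along the mRNA. Many of these genes give abundant mRNAs in every cell, and several of the mRNAs begin with a run of pyrimidines (a terminal oligopyrimidine tract) that ties their translation to nutrient signalling. What is measured here is the mRNA of each factor in the precipitate, not the protein.

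The arrays were alike over all probe sets, with medians from 5.25 to 5.39 on the log2 scale. The first FLAG-SMN IP replicate was the least like its group, with Pearson r = 0.964 and 0.968 to replicates 2 and 3, which correlated with each other at r = 0.989, so values without it are given beside the results that rest on it. Smn1 was at 9.89, 9.50 and 9.46 in FLAG-SMN IP and at 8.10 and 7.64 in control IP (limma adjusted p = 0.0877). Of the 7 motor neuron markers listed, 3 (Slc18a3, Isl1 and Prph) lay above the median of the presumed control probe sets in every array, whereas Slc5a7 and Mnx1 lay below it in all 5 arrays. The 8 neuronal markers had a median difference of -0.67 and the 7 measured noradrenergic markers one of -1.88 (FLAG-SMN IP minus control IP), with 0 genes of either list past the limma adjusted threshold. At an unadjusted p under 0.05 the neuronal list had 3 genes lower and 0 higher, and the noradrenergic list 4 lower and 1 higher. At that cut 7.21% of all genes were lower and 3.25% higher. Among 21 cell cycle genes 20 were measured, and replicate 1 of both groups was low for them, with array medians of 7.51, 8.45 and 8.53 in FLAG-SMN IP and 7.56 and 8.72 in control IP. The part of these lists in the values below was not tested.

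None of the 56 factor genes differed between the precipitates past the adjusted threshold: 0 were higher and 0 lower at a limma adjusted p under 0.05. In the same fit 0.0142% of the 28187 probe sets were called higher and 0.0177% lower. Before adjustment, at p under 0.05, 4 factor genes were on the higher side (7.14%, against 3.25% of all genes) and 3 on the lower side (5.36%, against 7.21%). Those 4 were Eif3m, Eif2s2, Eif4a2 and Eef1d, and those 3 were Eif4a1, Eif4g3 and Eif1b. The median log2 difference of the factor genes was 0.014, beside 0.0019 over all genes. Their lower and upper quartiles were -0.13 and 0.21, and those of all genes -0.19 and 0.17. A difference of at least 1 log2 unit in size was found for 2 factor genes (3.57%, against 2.57% of all genes). On simulated data of this size the fit recovered 0% of changes of 1 log2 unit, so differences of this order were not detectable in this fit.

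All 3 FLAG-SMN IP arrays lay above both control IP arrays for 11 factor genes (19.6%), where 11% of all genes did so. The reverse held for 4 factor genes (7.14%), where 14.8% of all genes did so. With an array left out fewer arrays have to separate, and the share of all genes that did so was larger. Without control IP replicate 1 there were 15 factor genes above (26.8%, against 31.1% of all genes) and 16 below (28.6%, against 27.9%). Without control IP replicate 2 there were 18 above (32.1%, against 22.4%) and 8 below (14.3%, against 30.9%). Without FLAG-SMN IP replicate 1 the counts were 14 above (25%, against 18.3%) and 11 below (19.6%, against 22.1%). Without replicate 2 they were 17 above (30.4%, against 16.9%) and 5 below (8.93%, against 19.3%), and without replicate 3 they were 11 above (19.6%, against 16.1%) and 5 below (8.93%, against 19%). The factor genes thus exceeded the share of all genes above the controls with all arrays, but not without control IP replicate 1. They were also brighter than most genes. In every array 54 of the 56 lay above the presumed control median, against 12479 of all 19937 genes. The part of brightness in these shares was not tested. The sign of the difference was kept under the omission of each array in turn by 23 of the 56 genes, 16 positive and 7 negative. In bulk precipitates like these, fewer cells of a type and less RNA per cell cannot be told apart. FLAG-SMN IP and control IP also differ in the cells themselves, as only those of FLAG-SMN IP carry the construct. RNA held with SMN and a different amount of that RNA in those cells cannot be told apart here.

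**Figure D1:**
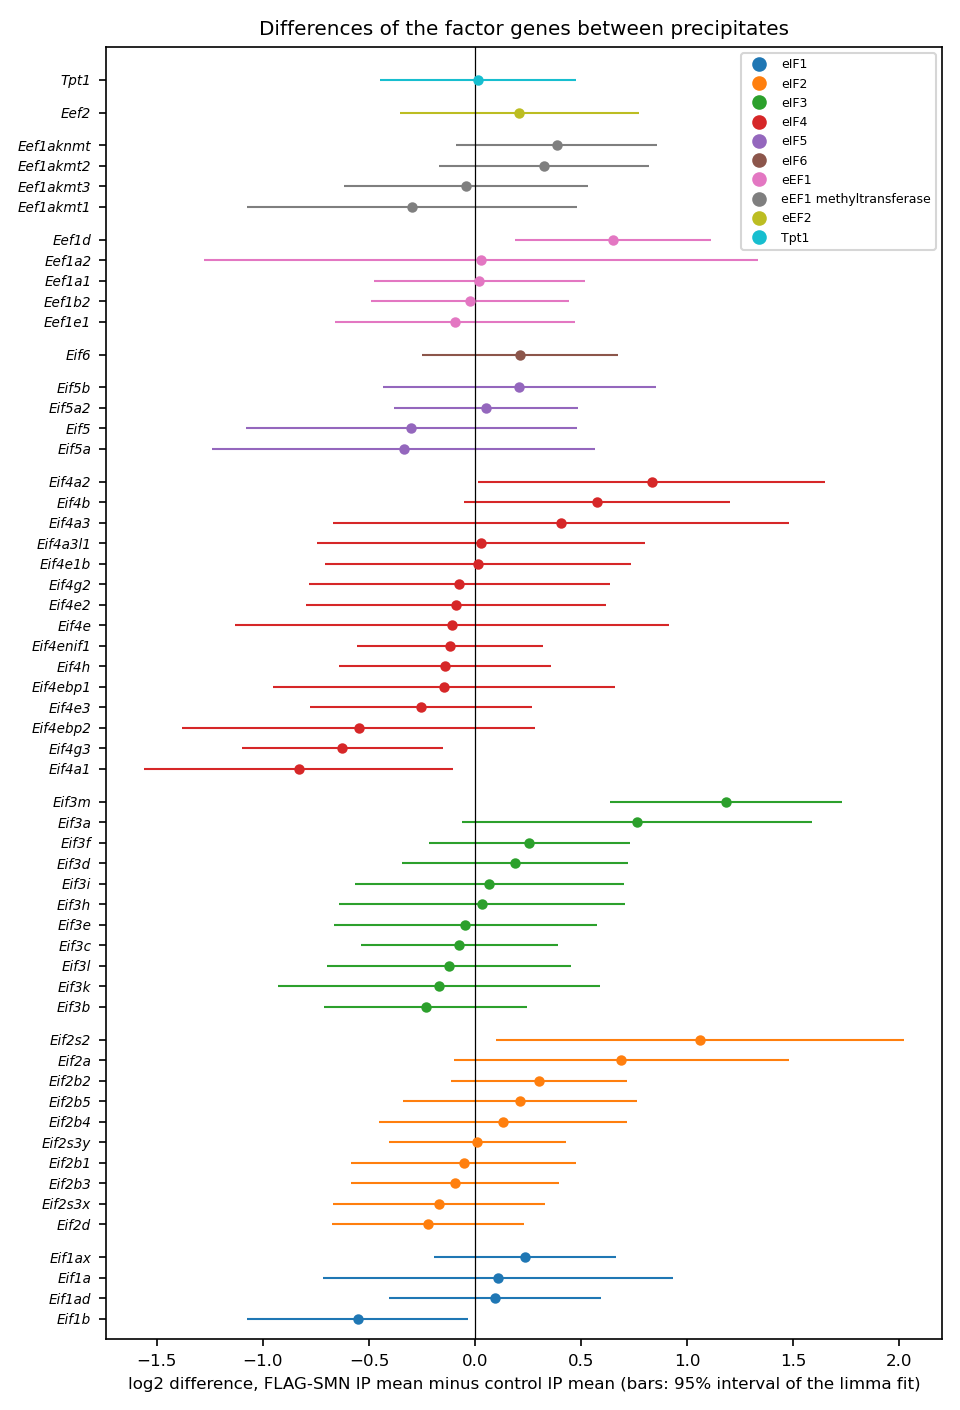
Log2 difference (FLAG-SMN IP mean minus control IP mean, horizontal axis) for each of the 56 factor genes, grouped and coloured by factor, with 95% confidence intervals of the limma fit. Most intervals cover 0, with Eif3m (1.18) and Eif2s2 (1.06) farthest above it and Eif4a1 (-0.83) farthest below.

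Among the genes with an Eif1 symbol, grouped by symbol and not by function, 4 carried their own probe set. Eif1b, a close relative of the start codon scanning factor eIF1, was at 9.38, 9.27 and 8.84 in FLAG-SMN IP and at 9.74 and 9.70 in control IP. Every FLAG-SMN array thus lay below both control arrays. The log2 difference was -0.55 (SE 0.22; 95% interval -1.07 to -0.03; limma adjusted p = 0.442). Eif1ax, the X-linked gene of eIF1A, had a difference of 0.24 with the groups apart, Eif1a one of 0.11 and Eif1ad one of 0.095. Eif1a rested on a single array, as replicate 1 of FLAG-SMN IP was at 7.83 and the other 4 arrays were between 6.66 and 7.05.

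The 10 eIF2 genes had a median difference of 0.071, 6 positive and 4 negative. At an unadjusted p under 0.05, 1 was on the higher side and 0 on the lower side, where 3.25% and 7.21% of all genes were. The eIF2 genes divide into the eIF2 trimer that carries initiator tRNA, the 5 subunits of its exchange factor eIF2B, and the separate factors Eif2a and Eif2d. Within the trimer, Eif2s2, which encodes eIF2 beta, was at 10.49, 9.01 and 9.58 in FLAG-SMN IP and at 8.67 and 8.59 in control IP. All FLAG-SMN arrays lay above the controls, but replicate 1 was well above the others. The annotation used gives no positions for the probe sets, so those of a gene with several, such as Eif2s2, may read processed copies of it. The mean was 9.69 ± 0.74 (SD, n = 3) against 8.63 ± 0.059 (SD, n = 2), 2.09-fold higher (log2 difference 1.06, SE 0.40; limma adjusted p = 0.425). The difference was 0.66 once that replicate was left out. By ID the brightest probe set, used above, lies among those of chromosome 8 genes, whereas Eif2s2 is on chromosome 2. The second probe set, which is dimmer and lies among those of chromosome 2 genes, read 7.96, 7.81 and 8.04 against 7.32 and 7.42. That probe set kept the groups apart without a high replicate 1, and its difference was 0.57 (SE 0.18; adjusted p = 0.319).

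The eIF2 gamma subunit did not share this pattern. Eif2s3x, its X-linked gene, was at 10.20, 10.44 and 10.40 in FLAG-SMN IP and at 10.29 and 10.75 in control IP. The groups overlapped, and the difference was -0.17 (SE 0.21; limma adjusted p = 0.915). Eif2s3y, the Y-linked copy, lay between 2.40 and 2.62 in all arrays, under every array's presumed control median (4.30 to 4.55), so its difference is not interpretable.

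For eIF2B, the guanine nucleotide exchange factor that reloads eIF2 and is the target of the integrated stress response, the 5 differences ran from -0.094 (Eif2b3) to 0.30 (Eif2b2). Eif2b5, the catalytic subunit, was at 8.35, 8.06 and 8.49 in FLAG-SMN IP and at 7.85 and 8.32 in control IP. Its groups overlapped, with a difference of 0.21 (SE 0.23; limma adjusted p = 0.891). Eif2b2 was the 1 subunit with the groups apart. Eif2a, an initiation factor distinct from the eIF2 alpha subunit, was at 9.10, 8.35 and 8.72 in FLAG-SMN IP and at 7.59 and 8.48 in control IP. The control arrays differed by 0.89 on this gene (replicate 1 minus replicate 2, -0.89), which is larger in size than its group difference of 0.69 (SE 0.33; adjusted p = 0.558). The difference of Eif2a was 0.24 without control IP replicate 1 and 1.14 without control IP replicate 2. Eif2d, which can also place a tRNA on the ribosome, had the groups apart downwards with a difference of -0.22 (adjusted p = 0.838).

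The multisubunit scaffold eIF3 was represented by 11 genes, with a median difference of 0.032, 6 positive and 5 negative. Its core is built from 8 subunits that share PCI or MPN domains, all measured here, and these had a median of -0.0063. The core held the extreme of all factor genes. Eif3m, a PCI-domain subunit of that core, was at 9.14, 8.60 and 8.63 in FLAG-SMN IP and at 7.50 and 7.71 in control IP. The lowest FLAG-SMN array was thus clearly above the higher control array. The mean was 8.79 ± 0.30 (SD, n = 3) against 7.61 ± 0.14 (SD, n = 2). This is a 2.27-fold higher value (log2 difference 1.18, SE 0.23; 95% interval 0.64 to 1.73), with the smallest limma adjusted p of the factor genes, 0.156. By ID this probe set, the brighter of 2, lies among those of chromosome 1 genes, whereas Eif3m is on chromosome 2. As for Eif2s2, the fold is that of the probe set and may not be that of the gene's own mRNA.

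The other probe set of Eif3m, which by ID lies among those of chromosome 2 genes, as Eif3m does, read 8.71, 7.41 and 8.19 in FLAG-SMN IP. In control IP it read 7.01 and 6.99. Here too the groups were apart, with a difference of 1.10 (SE 0.37; limma adjusted p = 0.346). Over the omission of each array the difference at the brighter probe set stayed between 1.01 and 1.29. The limma adjusted p was 0.0698 without FLAG-SMN IP replicate 1, where the difference was 1.01, and 0.614 without control IP replicate 2.

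Eif3a, the largest eIF3 subunit, was at 10.43, 9.22 and 9.65 in FLAG-SMN IP and at 9.01 and 8.99 in control IP. The groups were apart, yet replicate 1 again lay highest. The difference was 0.76 (SE 0.35; limma adjusted p = 0.526), and 0.43 without that array. Eif3f, a core subunit of the MPN type, was at 11.74, 11.35 and 11.37 against 11.26 and 11.20. Its small difference of 0.25 (adjusted p = 0.805) also kept the groups apart, making Eif3m, Eif3a and Eif3f the 3 eIF3 genes of which this was true. Eif3e read 9.93, 9.32 and 10.09 against 9.86 and 9.79, and Eif3h, a further MPN subunit, 12.34, 11.44 and 11.75 against 11.87 and 11.76. Both overlapped between the groups, with differences of -0.045 and 0.032.

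Outside the core, Eif3b, a subunit with an RNA recognition motif, was at 9.90, 9.84 and 10.10 in FLAG-SMN IP and at 9.99 and 10.36 in control IP. The difference was -0.23 (SE 0.20; limma adjusted p = 0.84), the lowest of the eIF3 genes, with overlapping groups. The others outside the core, Eif3d and Eif3i, and the remaining core subunits Eif3c, Eif3k and Eif3l had differences from -0.17 to 0.19, all with overlap. Eif3k, the smallest core subunit, was low in FLAG-SMN IP replicate 1 (9.42) and between 10.20 and 10.42 in the other 4 arrays. The eIF3 genes thus had no common direction, and their median was 0.18 without FLAG-SMN IP replicate 2 and -0.15 without FLAG-SMN IP replicate 3.

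The 15 eIF4 genes had a median difference of -0.11, 5 positive and 10 negative. At an unadjusted p under 0.05 there was 1 gene on the higher side and 2 on the lower, where 3.25% and 7.21% of all genes were. The helicase paralogs were on opposite sides. Eif4a1, the main eIF4A of growing cells, was at 10.39, 10.84 and 11.27 in FLAG-SMN IP and at 11.39 and 11.94 in control IP. Each FLAG-SMN array was below both controls. The mean was 10.83 ± 0.44 (SD, n = 3) against 11.67 ± 0.39 (SD, n = 2), 1.78-fold lower. The log2 difference was -0.83 (SE 0.31; limma adjusted p = 0.409). Its other probe sets read 10.57, 10.31 and 10.61 against 10.97 and 10.77, and 8.52, 8.24 and 8.36 against 8.69 and 8.60. All 3 probe sets kept the groups apart in the same direction, but the differences at the dimmer ones were -0.37 and -0.27 (adjusted p = 0.587 and 0.738). The same limit on probe set positions holds here, and processed copies of Eif4a1 exist in the mouse genome. By ID only the dimmest of the 3, with -0.27, lies among probe sets of chromosome 11 genes, as Eif4a1 does. The 1.78-fold value is that of the brightest probe set and may not be that of the gene's own mRNA.

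Eif4a2, the paralog that is prominent in neurons, was at 10.57, 9.48 and 9.60 in FLAG-SMN IP and at 9.17 and 8.93 in control IP. The groups were apart in the other direction, with replicate 1 far above replicates 2 and 3. The mean was 9.88 ± 0.60 (SD, n = 3) against 9.05 ± 0.17 (SD, n = 2), 1.78-fold higher (log2 difference 0.83, SE 0.34; limma adjusted p = 0.468). Without FLAG-SMN IP replicate 1 it was 0.49, and that of Eif4a1 was -0.61. At the probe sets used, the unlike signs of the pair were kept under the omission of every array. The ranges were 0.49 to 1.04 for Eif4a2 and -1.11 to -0.55 for Eif4a1, the latter at its brightest probe set. No such range is given for the dimmer probe sets of Eif4a1, among them the one with -0.27. Whether the differences of Eif4a1 and Eif4a2 differ from each other was not tested. Eif4a3, a helicase of the exon junction complex rather than of initiation, was at 8.55, 7.18 and 8.48 against 7.30 and 8.03. Its spread within each group exceeded the difference of 0.40 (SE 0.45; adjusted p = 0.897), which ran from 0.043 to 0.85 over the omission of each array.

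The scaffold genes measured were Eif4g2 and Eif4g3. Eif4g3 was at 8.11, 8.52 and 8.35 in FLAG-SMN IP and at 9.03 and 8.87 in control IP. No FLAG-SMN array reached the controls, and the difference was -0.63 (SE 0.20; limma adjusted p = 0.326). It stayed between -0.72 and -0.52 over the omission of each array. Eif4g2, which encodes a scaffold without the eIF4E-binding part, was at 11.11, 10.57 and 10.84 against 10.49 and 11.33. The control arrays spanned the FLAG-SMN arrays, with a difference of -0.075 (adjusted p = 0.988). Eif4b, an activator of the helicase, was at 10.98, 10.25 and 10.55 against 9.84 and 10.20. Its groups were barely apart, with a difference of 0.58 (SE 0.26; adjusted p = 0.53), while the related Eif4h gave -0.14.

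Cap-binding genes showed no separation. Eif4e was at 9.13, 7.67 and 7.90 in FLAG-SMN IP and at 8.17 and 8.50 in control IP. Replicate 1 was the highest of all arrays and replicates 2 and 3 the lowest, so the difference of -0.11 (SE 0.43; limma adjusted p = 0.988) became -0.55 without replicate 1. Its 2 dimmer probe sets gave 0.015 and -0.059. At these, replicate 1 deviated from the mean of replicates 2 and 3 by -0.10 and 0.20, against 1.34 at the brightest. By ID the brightest lies among probe sets of X-linked genes, whereas Eif4e is on chromosome 3. Its replicate 1 value may thus not be that of Eif4e mRNA. The cap-binding relatives Eif4e2, Eif4e3 and Eif4e1b ran from -0.26 to 0.013. Of the proteins that hold eIF4E away from eIF4G, Eif4ebp1 was at 9.72, 10.77 and 10.36 against 10.71 and 10.15, and Eif4ebp2 at 8.54, 9.71 and 9.33 against 9.58 and 9.90. Both were lowest in FLAG-SMN IP replicate 1, and both overlapped between groups. The differences were -0.14 (adjusted p = 0.973) and -0.55 (SE 0.35; adjusted p = 0.715), the latter -0.22 without replicate 1. Eif4enif1, a transporter of eIF4E, gave -0.12. Of these 3 genes only Eif4ebp2 kept its sign under the omission of every array. Eif4a3l1, an Eif4a3-like gene, lay between 2.87 and 3.70, again under the presumed control median of each array.

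**Figure D2:**
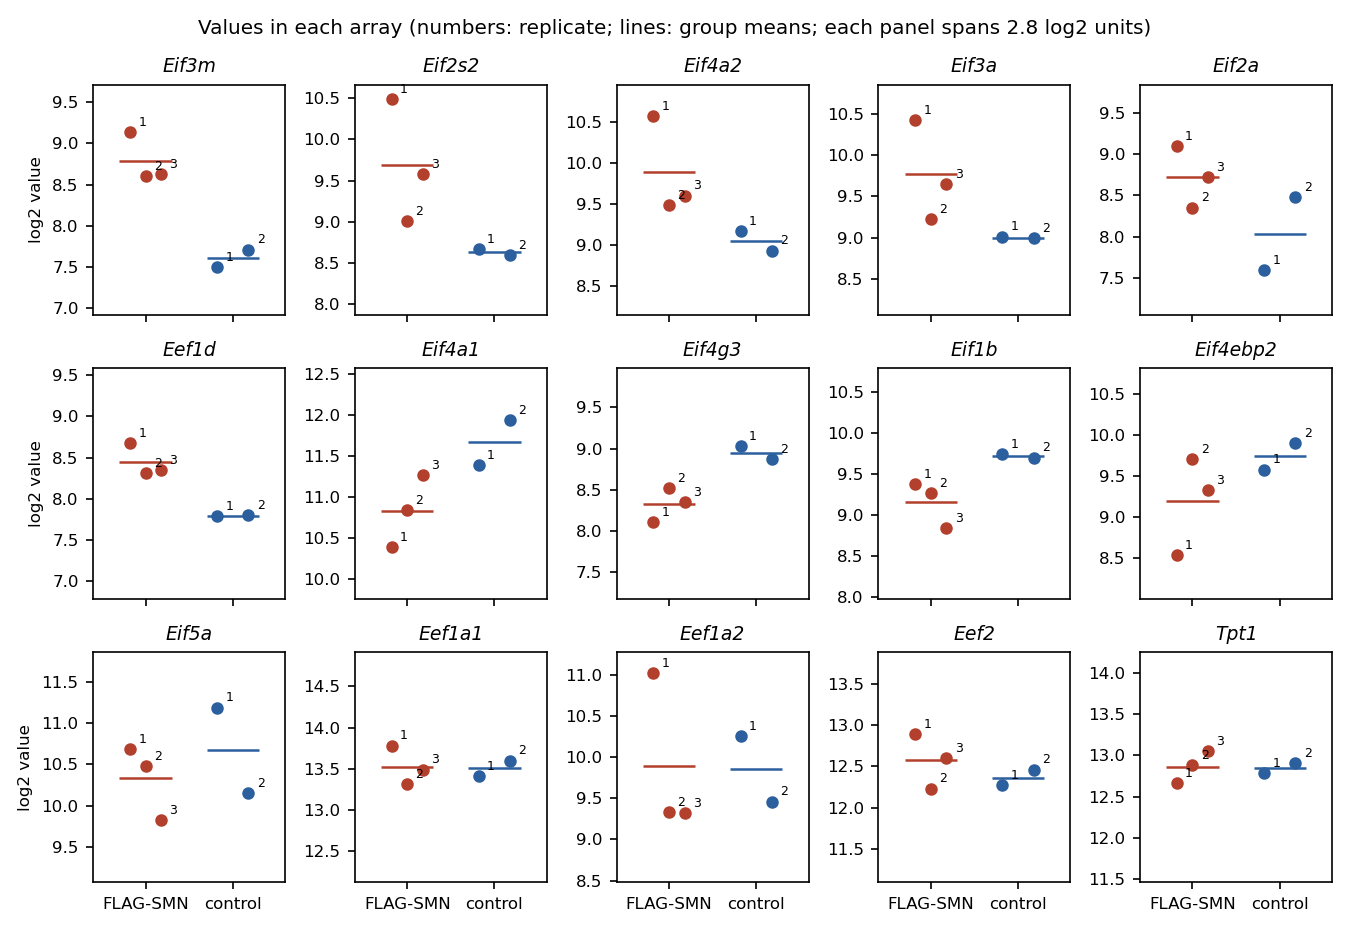
Log2 value of 15 factor genes in each array, with FLAG-SMN IP in red and control IP in blue; numbers give the replicate and lines the group means, and each panel has its own origin but the same span. Eif3m, Eef1d, Eif4g3 and Eif1b separate the groups with little spread, whereas Eif2s2, Eif3a, Eif4a2 and Eef1a2 have FLAG-SMN IP replicate 1 far above replicates 2 and 3.

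The eIF5 and eIF6 symbols covered 5 genes. Eif5, the GTPase activator of eIF2, was at 7.90, 8.04 and 8.49 in FLAG-SMN IP and at 7.96 and 8.92 in control IP. Eif5a, whose protein carries the hypusine modification, was at 10.69, 10.48 and 9.82 against 11.19 and 10.15. The control arrays differed by -0.96 for Eif5 and by 1.04 for Eif5a (replicate 1 minus replicate 2), more than the groups did. The group differences were -0.30 (limma adjusted p = 0.892) and -0.34 (adjusted p = 0.898). A dimmer probe set of Eif5a, which by ID lies among those of genes on its own chromosome, gave -0.46 (adjusted p = 0.696). Eif6, which keeps the large ribosomal subunit from joining, was at 9.95, 9.69 and 10.08 against 9.73 and 9.67, a difference of 0.21 (adjusted p = 0.856). Eif5b, the subunit-joining GTPase, gave 0.21 and Eif5a2 0.051.

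The eEF1 group, made up of 4 subunit genes and Eef1e1, had a median difference of 0.021, 3 positive and 2 negative. With the 4 methyltransferase genes, whose differences ran from -0.30 to 0.38, the median over all 9 Eef1 symbols was also 0.021. Eef1a1, which encodes the main eEF1A, was at 13.78, 13.31 and 13.49 in FLAG-SMN IP and at 13.41 and 13.60 in control IP. The groups overlapped, with a difference of 0.021 (SE 0.21; 95% interval -0.48 to 0.52; limma adjusted p = 0.998). Its signal was near the top of the table, whose highest value was 14.15, and whether differences are compressed there was not tested. A second probe set, shared in the annotation with Mir703 and D630045J12Rik, gave 1.03 (95% interval 0.066 to 2.00; adjusted p = 0.442), so the probe sets annotated to Eef1a1 did not give the same value. Processed copies of Eef1a1 are near-identical to it, and its values are uncertain as those of a single gene.

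Eef1a2, the eEF1A of neurons and muscle, was at 11.02, 9.33 and 9.32 in FLAG-SMN IP and at 10.26 and 9.46 in control IP. It was high in replicate 1 of both groups, the arrays in which the cell cycle genes were low. The difference was 0.028 (SE 0.55; 95% interval -1.28 to 1.33; limma adjusted p = 0.999) with all arrays and -0.54 without FLAG-SMN IP replicate 1. This interval was the widest of the 56, and no direction is read for Eef1a2.

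Of the exchange factor eEF1B, Eef1d, the delta subunit, was at 8.68, 8.31 and 8.35 in FLAG-SMN IP and at 7.79 and 7.80 in control IP. The controls lay together and below all FLAG-SMN arrays. The mean was 8.45 ± 0.20 (SD, n = 3) against 7.80 ± 0.0066 (SD, n = 2), 1.57-fold higher (log2 difference 0.65, SE 0.19; 95% interval 0.19 to 1.11; limma adjusted p = 0.3). Over the omission of each array it stayed between 0.53 and 0.72. Its partner Eef1b2, the catalytic beta subunit, was at 11.78, 11.99 and 11.97 against 12.11 and 11.76. Those groups overlapped, with a difference of -0.023 (adjusted p = 0.996). Eef1e1, named as an eEF1 gene but known as a component of the aminoacyl-tRNA synthetase complex, gave -0.096.

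Eef2, the translocase, was at 12.89, 12.23 and 12.60 in FLAG-SMN IP and at 12.27 and 12.46 in control IP. The groups overlapped, with a difference of 0.21 (SE 0.24; limma adjusted p = 0.899). Tpt1, an abundant mRNA that is a standard example of terminal oligopyrimidine control, was at 12.66, 12.88 and 13.05 against 12.78 and 12.91, a difference of 0.014 (SE 0.19; adjusted p = 0.999). Signs differed among its 4 probe sets. The other 3 gave 0.10, -0.34 and 0.60 (adjusted p = 0.951, 0.823 and 0.505), the last at the dimmest probe set. By ID only the probe set with -0.34 lies among those of chromosome 14 genes, as Tpt1 does.

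**Figure D3:**
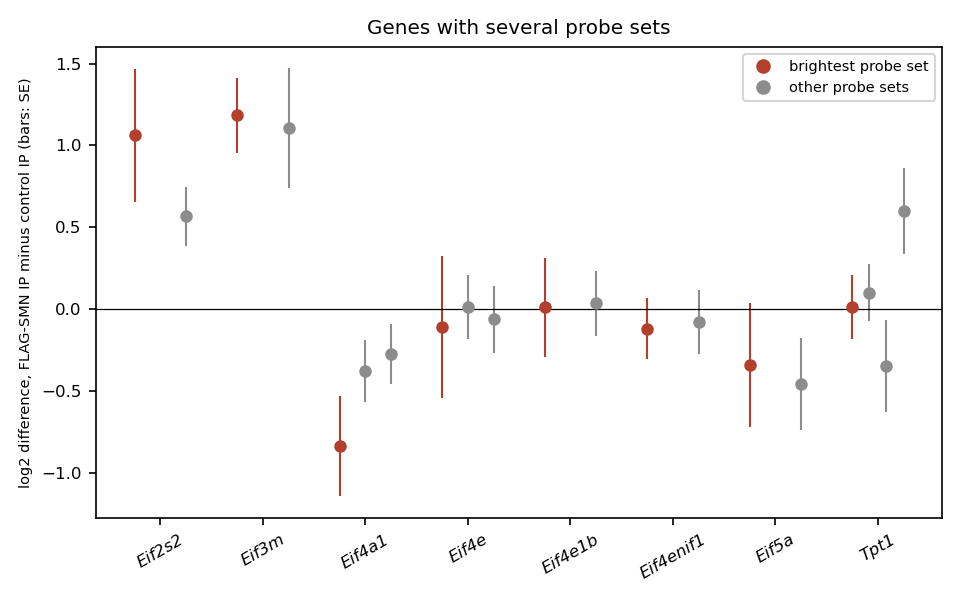
Log2 difference (FLAG-SMN IP minus control IP, vertical axis) with its standard error at each probe set of the 8 factor genes that have several, with the brightest in red and the others in grey. Both probe sets of Eif3m (1.18 and 1.10) and of Eif2s2 (1.06 and 0.57) are above 0 and all 3 of Eif4a1 below it, whereas those of Tpt1 fall on both sides.

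Terminal oligopyrimidine mRNAs were compared as a subset that the symbol rule did not use. From reports in human cells the list held Eef1a1, Eef1b2, Eef1d, Eef1g, Eef2, Eif3e, Eif3f, Eif3h, Eif4b and Tpt1, of which 9 were measured. Their median difference was 0.032, with 7 positive and 2 negative, beside -0.042 over the other 47 factor genes. At an unadjusted p under 0.05 the list had 1 member on the higher side (Eef1d) and 0 on the lower side, where 3.25% and 7.21% of all genes were. In limma 0 passed the adjusted threshold. The mRNA start of 43 factor genes could be read from RefSeq promoters (build GRCm38.p6). A run of at least 8 consecutive C or T bases, searched on the sense strand from 20 bases before to 40 after the annotated start, was present for 16 of the 43 (37.2%). The list had it for 3 of 6 (50%), and 24.7% of all 27025 genes of the promoter table had it. For a gene with several annotated starts the one with the longest run was taken, which can only raise these shares. A match describes the letters only. The sequences below show the longest runs around the annotated starts of 3 list genes with smaller differences (Eef1a1, Eef2, Eif3f). Those of 3 genes with larger differences (Eif3m, Eif4a1, Eif4a2) are beside them. Eef1a1, Eef2 and Eif3f are the 3 of 6 list genes that had a run of at least 8 bases. The list genes without such a run are not printed, so the printed genes do not show how runs go with differences. Each is 30 bases in the direction of transcription around the longest C or T run of the searched window, which is in capitals. The printed stretch of Eif4a1 ends before its annotated start, at base -2, and that of Eef2 begins at base 4 after it, whereas the other 4 stretches span the start.
Eef1a1, chr9:78481710-78481739, minus strand: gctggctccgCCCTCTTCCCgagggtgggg
Eef2, chr10:81176634-81176663, plus strand: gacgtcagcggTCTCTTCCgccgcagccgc
Eif3f, chr7:108934404-108934433, plus strand: ttctaggCTCTCTCTCTTTCTCggcaagat
Eif3m, chr2:105017027-105017056, minus strand: acggcaccgCTCTCTTTTCCggtcggcgtg
Eif4a1, chr11:69672425-69672454, minus strand: ccgaactaaagcgCCTacaaagtaacgtca
Eif4a2, chr16:23107449-23107478, plus strand: agggccgcggaaaCCCCgtaggagcagggc
Eif3f held the longest run of these, 15 bases, beginning 4 bases before its annotated start. Eif3m held one of 11 bases that begins 20 bases before the annotated start, and the helicase genes Eif4a1 and Eif4a2 held none over 4 bases.

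Several factor genes also carry small nucleolar RNAs (snoRNAs), which guide modification of other RNAs, within their bounds. By position in RefSeq, 16 snoRNA genes lie within 9 genes of the rule, 8 of them measured, and 3 of these snoRNAs had a probe set under their own symbol. Snord37, within Eef2, was at 5.87, 4.15 and 5.19 in FLAG-SMN IP and at 3.41 and 3.77 in control IP. Every FLAG-SMN array was above both controls. Both control values and FLAG-SMN IP replicate 2 lay below the presumed control medians of their arrays, so no size is given for this difference, which did not pass the limma adjusted threshold (adjusted p = 0.324). Snora41, within Eef1b2, was at 5.64, 6.58 and 7.54 against 5.78 and 6.15, and Snora31, within Tpt1, at 6.01, 7.75 and 8.57 against 6.64 and 7.04. Both overlapped between the groups because FLAG-SMN IP replicate 1 was the lowest array, and their differences were 0.62 (adjusted p = 0.822) and 0.60 (adjusted p = 0.898). The host mRNAs differed by -0.023 (Eef1b2), 0.014 (Tpt1) and 0.21 (Eef2). This set was chosen after values of these data were known, and the difference between a snoRNA and its host was not tested.

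FLAG-SMN IP replicate 1 was the highest FLAG-SMN array for 27 of the 56 genes and the lowest for 20, and its median deviation from the mean of replicates 2 and 3 was 0.13, beside 0.027 over all genes. Leaving it out changed the sign for 12 of the 56 differences, 3 of them in the eEF1 group, at differences already near 0 (Eef1a1, Eef1a2 and Eef1b2). Deviations over 1 log2 unit were positive for Eef1a2 (1.69), Eif4e (1.34), Eif2s2 (1.19), Eif1a (1.04) and Eif4a2 (1.03). Dimmer probe sets did not share those of Eif4e (-0.10 and 0.20) and Eif2s2 (0.033). Without this array 0 factor genes passed the limma adjusted threshold, and 4 were on the higher and 3 on the lower side before adjustment. The share of all genes before adjustment is not given for this omission, so nothing is read from the 4 and 3. Past the adjusted threshold were 0.564% of all probe sets higher (159) and 0.678% lower (191). At these shares fewer than 1 call would fall among 56 genes, so nothing about the factor genes is read from their 0.

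**Figure D4:**
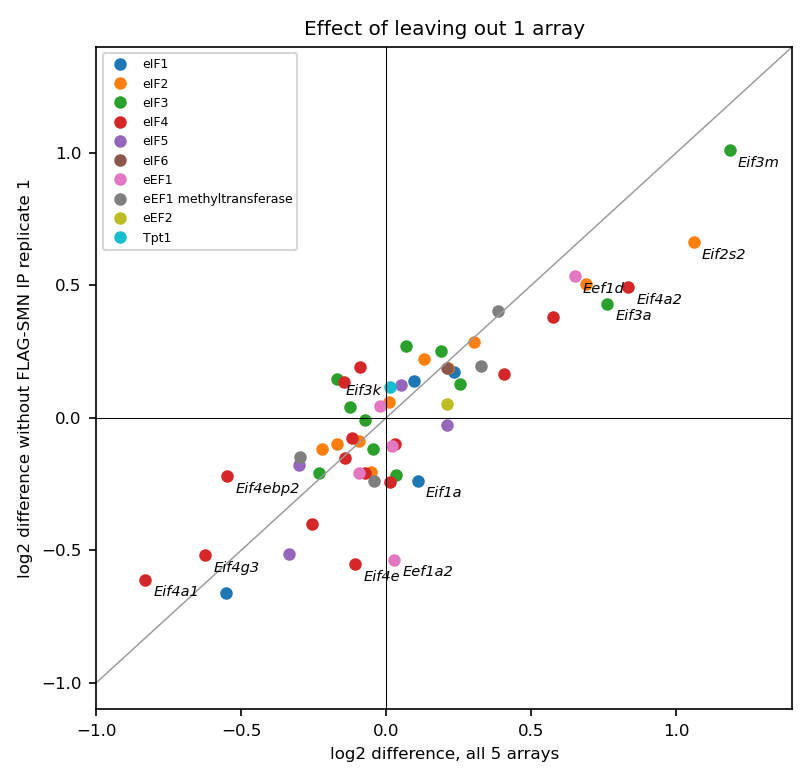
Log2 difference of each factor gene with all 5 arrays (horizontal axis) and without FLAG-SMN IP replicate 1 (vertical axis), coloured by factor, with the line of equality in grey. Eif3m stays at 1.01 without the array, Eif2s2, Eif3a and Eif4a2 lie well under the line, and Eef1a2 moves from 0.028 to -0.54.

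Other translation genes, taken as a fixed list of 44 with 41 measured, had a median difference of 0.041. At an unadjusted p under 0.05, 2 were on the higher side and 1 on the lower side, and 0 passed the adjusted threshold in limma. Of all genes, 3.25% were on the higher side and 7.21% on the lower side before adjustment. Eef2k, the kinase that inactivates eEF2, was at 7.61, 7.24 and 7.71 in FLAG-SMN IP and at 6.39 and 6.65 in control IP. Its groups were apart, with a difference of 1.00 (SE 0.22; limma adjusted p = 0.194). The others were the release factor gene Etf1 at 0.50 (adjusted p = 0.425) and the kinase gene Mtor at -0.52 (adjusted p = 0.478). The 6 genes of eIF2 kinases and of the phosphatase subunits that oppose them had differences from -0.20 to 0.054, with 0 past an unadjusted p under 0.05, and the 8 mitochondrial factors a median of 0.20, also with 0. Pabpc1, the main poly(A)-binding protein and itself a terminal oligopyrimidine mRNA, gave -0.40 (adjusted p = 0.718).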

How the data were processed

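The authors deposited log2 probe set values. Per the submitters' processing notes they were made with RMA, which corrects background, quantile-normalizes the arrays and summarises probes; the RMA version is not given in the sources used. Input was 300 to 500 ng of precipitated RNA, per the labels' protocols. RMA forces arrays toward one distribution, so a general difference in recovered RNA is not visible. The table held 34760 probe sets with values from 1.28 to 14.15; 6573 whose IDs lie below the lowest annotated ID were set aside as presumed control probe sets. Of the remaining 28187, 21640 carried 1 gene symbol, 1321 several and 5226 none. By gene ID all 56 symbols matched the RefSeq table (GRCm38.p6). Start sequences and gene bounds come from RefSeq; the array files name no build.

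FLAG-SMN IP was compared with control IP in limma 3.58.1 under R 4.3.3 (eBayes on an lmFit model without block; 2-sided; 3 residual and 3.8 prior degrees of freedom), with Benjamini-Hochberg adjustment over 28187 probe sets and a threshold of 0.05. Differences are of mean log2 values, and lists are described by counts and medians. On simulated data with 200 of 28187 probe sets changed, this comparison recovered 0% where the true difference was 1 log2 unit, 64.5% where it was 2 and 88.3% where it was 3. Values per array were printed for fixed genes of each factor and for the 5 highest and 5 lowest differences among genes brighter than the median probe set; others named were chosen after their values were seen. The members and lists were chosen with earlier results of these data known. Alternatives were other scalings, filters, variance moderation, a replicate block, gene means and leaving out each array. The number of arrays limits the precision. Figures were drawn with matplotlib 3.10.9.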

Additional observations from a re-analysis of the deposited data

How the results depend on the processing

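The count of factor genes past the adjusted threshold was 0 under all 12 alternatives, and the lowest adjusted p of a factor gene was 0.0698, without FLAG-SMN IP replicate 1. Centring on the brighter probe sets gave 7 genes on the higher side at an unadjusted p under 0.05 in place of 4. Over all 28187 probe sets the calls at a limma adjusted p under 0.05 rose too, from 4 to 16 higher and from 5 to 25 lower. For this and the other alternatives the share of all genes at an unadjusted p under 0.05 is not given. Nothing about the factor genes is read from those counts. Leaving out single arrays gave 1 to 8 on the higher and 1 to 3 on the lower side, with 11 to 18 genes whose groups lay apart upwards (16.1% to 31.1% of all genes under the same omissions) and 5 to 16 downwards (19% to 30.9%); the median difference ran from -0.016 to 0.24 for eIF2, from -0.15 to 0.18 for eIF3, from -0.26 to -0.084 for eIF4 and from -0.20 to 0.18 for eEF1. Of the counts and medians under all alternatives, 103 values stayed within 1.5 times the main count or within the spread between arrays and 15 did not, and the cause was not tested.

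The replicate block left 1 gene on the lower side in place of 3, moved the eIF3 median to -0.15, and gave Eif4e 0.059 and Tpt1 -0.079. As without the block, 0 genes passed the adjusted threshold. FLAG-SMN IP replicate 3 has no control IP array of its number. The block differences are therefore the same as those without that replicate, and are not a separate result or an effect of pairing. The labels do not say that numbers pair the samples, and same-numbered arrays deviated together with r = 0.13 for number 1 and r = -0.20 for number 2. Signs of small differences also turned with scaling: Eef1a1 was -0.055 and Tpt1 -0.038 under cyclic loess, and Eef1b2 0.011 when centred on brighter probe sets.

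Leaving out single arrays turned the sign of some small differences, with ranges of -0.11 to 0.13 for Eef1a1, -0.54 to 0.43 for Eef1a2, -0.20 to 0.15 for Eef1b2, -0.079 to 0.11 for Tpt1, -0.026 to 0.45 for Eif2b5 and -0.40 to 0.057 for Eif2s3x. The ranges were -0.20 to 0.18 for Eif3e, -0.22 to 0.23 for Eif3h, -0.55 to 0.18 for Eif4e, -0.42 to 0.14 for Eif4ebp1, -0.50 to 0.35 for Eif4g2, -0.78 to 0.18 for Eif5 and -0.85 to 0.18 for Eif5a.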

Other observations

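Another 10 probe sets carry a factor symbol together with other gene names and entered no count above. The largest difference among them was at the probe set annotated to Mir703, Eef1a1 and D630045J12Rik, with 12.22, 11.38 and 10.95 in FLAG-SMN IP and 10.86 and 10.11 in control IP. All FLAG-SMN arrays lay above both controls, by 1.03 in the mean (SE 0.41; limma adjusted p = 0.442), unlike the probe set annotated to Eef1a1 alone (0.021). The probe sets shared by Eif3j1 and Eif3j2 gave -0.026 and 0.047, and those shared by Eif4a3 and Eif4a3l1 gave 0.031 and 0.19.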
